A study of Mus musculus with 16 samples.

Results

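The question here was whether removing miR-33 from the liver had a different effect on RNA levels in mice fed chow than in mice fed a high-fat diet (HFD). All 16 of the 16 liver libraries of the study entered, and each was placed by the diet and genotype in its labels. The quantity was a difference of differences for each gene, knockout against wild type on HFD minus knockout against wild type on chow, on the log2 scale. A negative value means that the knockout effect was lower on HFD than on chow, and the same value is also the diet effect in knockout minus the diet effect in wild type. It was tested for 16830 of the 23258 genes in the deposited counts. Gene starts below are those of the deposited table, on mm10, and each end is the last base before the deposited stop.

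All mice were C57BL/6. The 4 groups were wild type on chow (3 libraries), miR-33 Liver knockout on chow (4), wild type on HFD (4) and miR-33 Liver knockout on HFD (5), with total RNA of snap-frozen liver depleted of ribosomal RNA before sequencing. Alb-Cre, a driver that acts in hepatocytes, appears in the name of the deposited counts, and the labels do not say whether wild-type mice carried it. The labels give no sex, age, batch or time on the diet and do not say that libraries came from separate animals, so the spread behind each p-value is that between libraries and may be technical.

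miR-33 lies in an intron of Srebf2, the gene of the transcription factor SREBP2 that switches on cholesterol synthesis and uptake when sterols are low. The microRNA is known to repress Abca1, the transporter that loads cholesterol onto HDL, and genes of fatty acid oxidation. The liver also holds sinusoidal endothelial cells, resident macrophages called Kupffer cells, and stellate cells that make matrix, and a high-fat diet is known to change the share and state of these cells.

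The deleted microRNA and a part of its best known target site show what the knockout removes. Capitals in the first 2 sequences mark the seed, bases 2 to 8, and in the Abca1 sequence they mark 3 matches to the seed's complement, 2 of which overlap. The microRNAs are from RefSeq (GRCm38.p6), at chr15:82198127-82198147 and chr15:82198167-82198188 on the plus strand, inside the limits of Srebf2. The Abca1 stretch lies in the 3' UTR, of 3156 bases, at chr4:53033783-53033812 on the minus strand (GRCm38).
mmu-miR-33-5p: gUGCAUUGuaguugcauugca
mmu-miR-33-3p: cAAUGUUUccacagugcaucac
Abca1 sites: tattCAATGCAATGCActtCAATGCAacga

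Library totals ran from 15888436 to 29469645 estimated counts. The first principal component, with 48.5% of the variance, separated the diets. Chow libraries lay at 44.5 to 58.1 and HFD libraries at -54.3 to -15.3. HFD knockout 1 had the -15.3, and the other HFD libraries lay at -31.5 or lower. Chow wild type 3 lay far from all others on component 2 (-48.8), as did HFD knockout 1 on component 3 (50.2). Several results that rest on either are also given without it. The tissue label matched its markers, since 22 hepatocyte genes together had 101462 to 155933 CPM (counts scaled to library size) in every library, against 587 to 916 CPM for 30 sinusoidal endothelial genes. No value here measures miR-33 itself, so the deletion was not checked.

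No gene passed an adjusted p of 0.05 in edgeR's quasi-likelihood test (0 of 16830, 0%), and limma voom also called 0. At an unadjusted p under 0.05 there were 1110 genes (6.60%), 647 of them negative (3.84% of all) and 463 positive (2.75%). The split depended on scaling, because library totals without TMM gave 425 negative and 653 positive and moved the median of all genes from 0.00 to 0.07. DESeq2's Wald test called 13 genes (0.0772%). Of these, Cd93, Stab1, Stab2, Adgrl4, Cd14, Iqgap1, Trim32, Cpt1b and Zfp189 were negative, and Pja1, Cul7, Tcaim and Abhd18 were positive. Without chow wild type 1 edgeR called 4 genes, and without HFD knockout 1 it called 1. A difference of 2 effects carries more error than either, with a median standard error (SE) of 0.26 against 0.20 on chow and 0.17 on HFD.

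Most genes with small p had knockout effects of opposite sign on the diets. Of the 647 negative genes 628 (97.1%) had opposite signs, as did 449 of the 463 positive genes (97.0%), against 54.5% of all genes tested. Selection on the difference itself favours opposite signs, so these shares are a description, and a sign counts however small the effect. In Mvk, for example, the knockout effect was -1.17 ± 0.28 (SE) on chow and 0.19 ± 0.23 on HFD, and in Apbb1ip, an adaptor of integrin signalling, it was 0.84 ± 0.20 and -0.16 ± 0.14. The chow effect was the larger in size in 475 of the 647 and 329 of the 463, against 9963 of the 16830 genes tested. Non-overlap between libraries was rarer: in 7 genes (0.0416%) every knockout library lay above every wild-type library on chow and below on HFD, and in 4 (0.0238%) the reverse held. The former were Cd93, Eng, Myzap, Tcaf1, Vamp3, Rnu3b4 and 2310068J16Rik, and the latter Tcaim, Fbxo44, Pcnx4 and 5730405O15Rik. Apart from Cd93, Eng, Myzap, Tcaim and Fbxo44 these names were chosen after their values were seen.

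**Figure D1:**
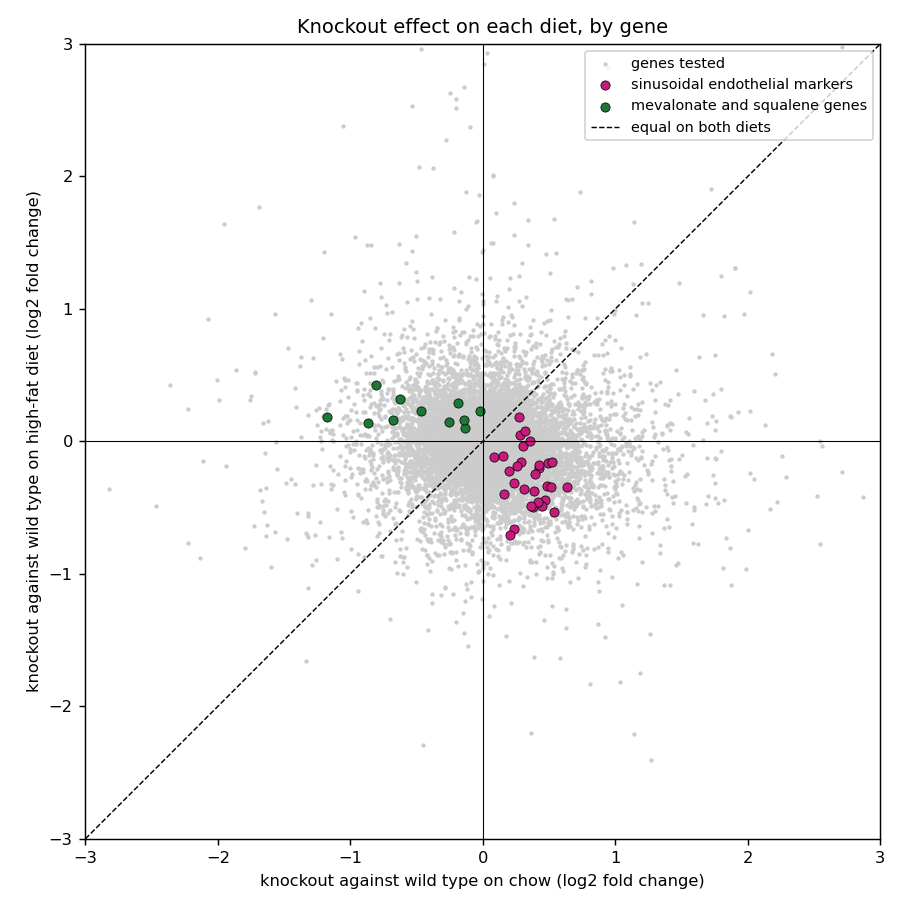
Each point is 1 gene, with the log2 fold change of knockout against wild type on chow on the x axis and on high-fat diet on the y axis. The dashed line marks equal effects, and 27 genes lie outside the axis limit of 3. Sinusoidal endothelial markers (pink) lie right of 0 on chow in 30 of 30 cases and mevalonate and squalene genes (green) left of 0 in 11 of 11.

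Among the gene lists, sinusoidal endothelial markers had the largest share of members with an unadjusted p under 0.05. These cells line the liver's capillaries and take up waste molecules and lipoprotein remnants from blood. All 30 of the 30 markers had a difference below 0, with a median of -0.64, against 8290 of 16830 genes below 0 (49.3%) and a median of 0.00 over all genes. In 19 of the 30 the unadjusted p was under 0.05, against 3.84% of genes tested, and 0 passed the adjusted threshold. The median knockout effect was 0.36 on chow, with 30 of 30 above 0, and -0.28 on HFD, with 4 of 30 above 0. Seen by genotype, the median diet effect was 0.40 in wild type and -0.29 in knockout. The marker list was written with earlier results of these data known, and the members share the same libraries. Negative medians were not confined to this list. They were -1.02 for mesothelial (5 of 7 below 0), -0.39 for T and NK cell (10 of 14) and -0.29 for cholangiocyte markers (7 of 8). The median was -0.33 for lipid-associated macrophage (12 of 16) and MHC class II genes (8 of 9), and -0.32 for adipocyte markers (4 of 4). B and plasma cell markers had 0.26 (4 of 10 below 0). In each of these lists at most 1 member had an unadjusted p under 0.05.

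Cd93, a surface receptor of endothelial and myeloid cells (chr2:148436640-148443563), had the smallest p of all named genes. Its level was 5.74, 8.21 and 8.56 CPM in wild type on chow and 8.58, 9.58, 11 and 12 CPM in knockout on chow. On HFD it was 18.2, 18.6, 20.6 and 22 CPM in wild type and 12.2, 13.8, 14.8, 15.1 and 15.2 CPM in knockout. Knockout libraries lay above wild type on chow, by a narrow gap, and below on HFD, with no overlap on either diet. The difference was -0.93 ± 0.19 (SE), made of 0.45 ± 0.15 on chow and -0.48 ± 0.12 on HFD, with an adjusted p of 0.42 in edgeR, 0.575 in voom and 0.0233 in DESeq2.

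Stab1 and Stab2 encode stabilins, the scavenger receptors of sinusoidal cells. Stab1 (chr14:31139013-31168641) had 23, 24.2 and 26.2 CPM in wild type and 30.6, 35.6, 35.7 and 40.5 CPM in knockout on chow. On HFD it had 25.4, 27, 34.1 and 37.6 CPM in wild type and 16.8, 17.4, 19.3, 21.9 and 32 CPM in knockout. The groups did not overlap on chow, and on HFD they overlapped only through the 32 CPM of HFD knockout 1. The difference of -1.08 ± 0.25 had an adjusted p of 0.42 in edgeR and 0.0461 in DESeq2. Without HFD knockout 1 it was -1.26, with an edgeR adjusted p of 0.0431.

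Stab2 (chr10:86841198-87008025) had 32.5, 35.4 and 38.2 CPM in wild type and 43.3, 44.6, 51.3 and 57.3 CPM in knockout on chow. On HFD the values were 31.4, 34.9, 42.6 and 50.9 CPM in wild type and 25.4, 27.9, 28.9, 29.5 and 35.6 CPM in knockout. Again the chow groups were apart and 1 HFD knockout library, number 1, reached into the wild-type range. The difference was -0.91 ± 0.20 (edgeR adjusted p = 0.42, DESeq2 adjusted p = 0.0448).

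Eng, a co-receptor for TGF-beta family ligands on endothelium (chr2:32646595-32682669), had 17.3, 18.3 and 21.4 CPM in wild type and 21.7, 21.8, 22 and 28.9 CPM in knockout on chow. High-fat libraries had 27.9, 28.2, 32.9 and 33.6 CPM in wild type and 20.6, 22.9, 24.7, 25 and 25.9 CPM in knockout. Neither diet showed an overlap, and the log2 diet effect was 0.69 in wild type and 0.01 in knockout. The difference was -0.67 ± 0.16 (edgeR adjusted p = 0.42, DESeq2 adjusted p = 0.0612). Adgrl4, an adhesion receptor of vascular endothelium that was not on the list, had -0.75 ± 0.17 (edgeR adjusted p = 0.42, DESeq2 adjusted p = 0.0484).

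Summed over the 30 endothelial markers, levels were 587 to 745 CPM in wild type and 797 to 916 CPM in knockout on chow, and 676 to 875 CPM in wild type and 592 to 768 CPM in knockout on HFD. The sums did not overlap on chow. On HFD they overlapped only through the 768 CPM of HFD knockout 1, and the other HFD knockouts had 592 to 620 CPM. In bulk liver, fewer cells of a type and less RNA per cell cannot be told apart. Leaving out 1 library at a time gave medians from -0.81 to -0.56, and without HFD knockout 1 and chow wild type 3 together the median was -0.60, with 30 of 30 below 0 and 21 with an unadjusted p under 0.05.

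**Figure D2:**
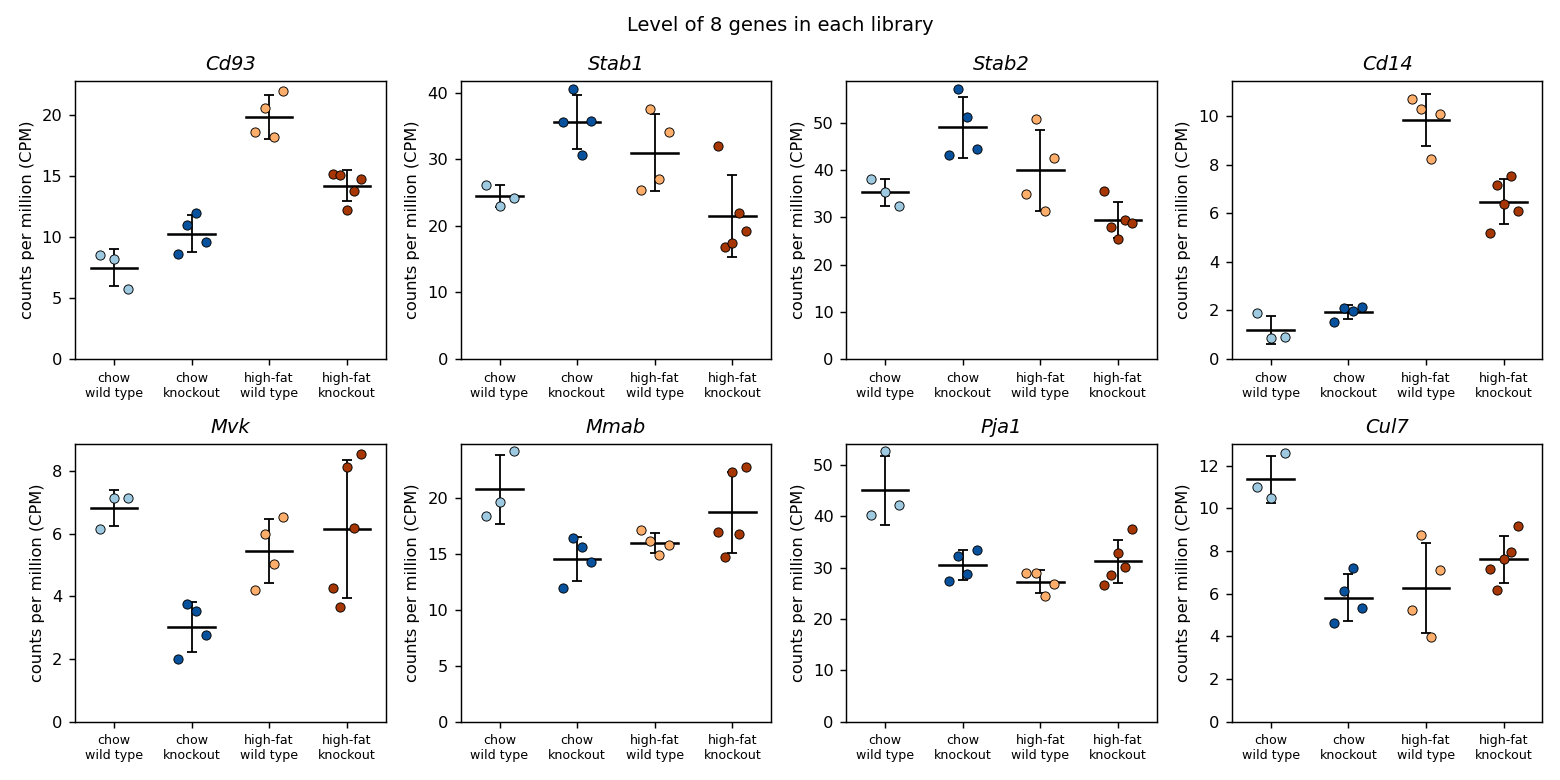
CPM of 8 genes by group, where each point is 1 library, the horizontal line the mean and the error bar the SD. Cd93, Stab1, Stab2 and Cd14 have higher means in knockout than in wild type on chow and lower means on high-fat diet, while Mvk, Mmab, Pja1 and Cul7 show the reverse.

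Macrophage genes lay on the same side with more scatter. Of 22 markers of Kupffer cells and macrophages 19 were below 0, with a median of -0.69, and 7 had a negative difference at an unadjusted p under 0.05. Over all genes tested 49.3% were below 0 and 3.84% were negative at that p. The median knockout effect was 0.56 on chow and -0.15 on HFD. Their summed level was 564 to 745 CPM in wild type and 736 to 833 CPM in knockout on chow, and 911 to 1380 CPM and 874 to 1476 CPM on HFD. The groups overlapped on both diets. Leaving out chow wild type 1 turned the 7 into 16, and it was 14 without HFD knockout 1 and 13 without HFD wild type 1. It was 4 without HFD knockout 2 or 3 or chow knockout 3 or 4, and 3 without HFD wild type 2 or chow wild type 2 or 3.

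Cd14, the co-receptor that hands bacterial lipopolysaccharide to Tlr4 (chr18:36725074-36726736), had 0.873, 0.887 and 1.88 CPM in wild type and 1.52, 1.98, 2.11 and 2.16 CPM in knockout on chow. In the HFD groups it had 8.25, 10.1, 10.3 and 10.7 CPM in wild type and 5.19, 6.08, 6.37, 7.17 and 7.53 CPM in knockout. The HFD groups did not overlap, and the chow groups overlapped through chow wild type 1. The log2 diet effect was 2.99 in wild type and 1.73 in knockout, and the difference was -1.26 ± 0.30 (edgeR adjusted p = 0.42, DESeq2 adjusted p = 0.0484). Without chow wild type 1 it was -1.75, with an edgeR adjusted p of 0.0472. The other 3 genes called without that library were Cd44, the hyaluronan receptor, at -1.28, Marcksl1, a protein of the cytoskeleton, at -0.99, and Srgn, the proteoglycan of immune cell granules, at -1.48. They were named after their values were seen.

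Several receptors of innate immune cells and the enzyme Hmox1 had differences of the same sign. Other innate lists had medians above 0 with all libraries included. Tlr4 itself had -1.21 ± 0.37, and C5ar1, the receptor for complement fragment C5a, had -1.65 ± 0.36. Hmox1, which breaks down heme, had -0.80 ± 0.20, and Csf1r, the growth factor receptor of macrophages, had -0.96 ± 0.38. Their edgeR adjusted p-values were 0.66, 0.42, 0.45 and 0.70. Of 25 Toll-like receptor and lipopolysaccharide recognition genes 22 were below 0, with a median of -0.20, and of 26 chemokines and cytokines 21 were, with a median of -0.50. The first median was between -0.38 and -0.31 without chow wild type 1, chow knockout 1, HFD wild type 3 or HFD knockout 1, and the second was -0.32 without chow knockout 3. Of 22 interferon-stimulated genes, which cells switch on against viruses, 16 were above 0, with a median of 0.26 that was 0.17 without HFD knockout 1 and 0.16 without chow wild type 2. Acute phase genes, whose proteins hepatocytes secrete in inflammation, were above 0 in 16 of 19 cases, with a median of 0.35. Without chow wild type 3 the acute phase median was -0.07, with 5 of 19 above 0, and without it and HFD knockout 1 it was -0.09. It was 0.22 without HFD knockout 1, 0.59 without chow wild type 1 and 0.06 in voom. Tgfb1, the main profibrotic cytokine, had -0.69 ± 0.18 (edgeR adjusted p = 0.53).

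Neutrophil markers rested on few counts. Of 14 listed genes 7 passed the filter, and 5 of these were below 0, with a median of -2.45 that was anywhere from -2.68 to -0.80 when 1 library was left out. It moved by over 1.5 times without HFD knockout 2, 4 or 5, HFD wild type 1, 2 or 4, or chow knockout 1 or 4. The filter was applied anew each time, so the genes behind the median changed in some of these runs. For example, 5 genes were left without HFD knockout 5 or HFD wild type 2 or 4, and 7 without chow knockout 1. S100a8, a subunit of calprotectin, had 0.118 to 0.188 CPM in wild type and 0.142 to 0.794 CPM in knockout on chow, and 0.968 to 3.35 CPM and 0.842 to 1.70 CPM on HFD. Its difference was -2.96 ± 0.73 (edgeR adjusted p = 0.44), and the groups overlapped on both diets.

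Matrix genes followed by their medians but not by their sum. Of 33 collagens and other matrix genes 29 were below 0, with a median of -0.57, and 12 were negative at an unadjusted p under 0.05, against 49.3% below 0 and 3.84% negative at that p over all genes. That count was 6 in voom with sample weights, 7 without chow wild type 3 and 3 without it and HFD knockout 1, when the median was -0.37. Col4a2, a chain of the basement membrane collagen, had 13.4, 13.6 and 15 CPM in wild type and 16.6, 17.7, 17.9 and 18.1 CPM in knockout on chow. With high-fat feeding its levels were 33.7, 43.2, 46.3 and 49.4 CPM in wild type and 28.5, 30.4, 37.3, 37.5 and 41.3 CPM in knockout. Only the chow groups were apart, and the difference was -0.62 ± 0.18 (edgeR adjusted p = 0.65). The summed level of the 33 genes, which weights the most abundant of them, was 1396 to 1815 CPM in wild type and 1430 to 1681 CPM in knockout on chow, and 1488 to 1998 CPM and 1505 to 1608 CPM on HFD. Among 16 stellate cell markers 15 were below 0, with a median of -0.30. Des, the filament protein of quiescent stellate cells, had the smallest p of them, at -0.82 ± 0.25 (edgeR adjusted p = 0.66).

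**Figure D3:**
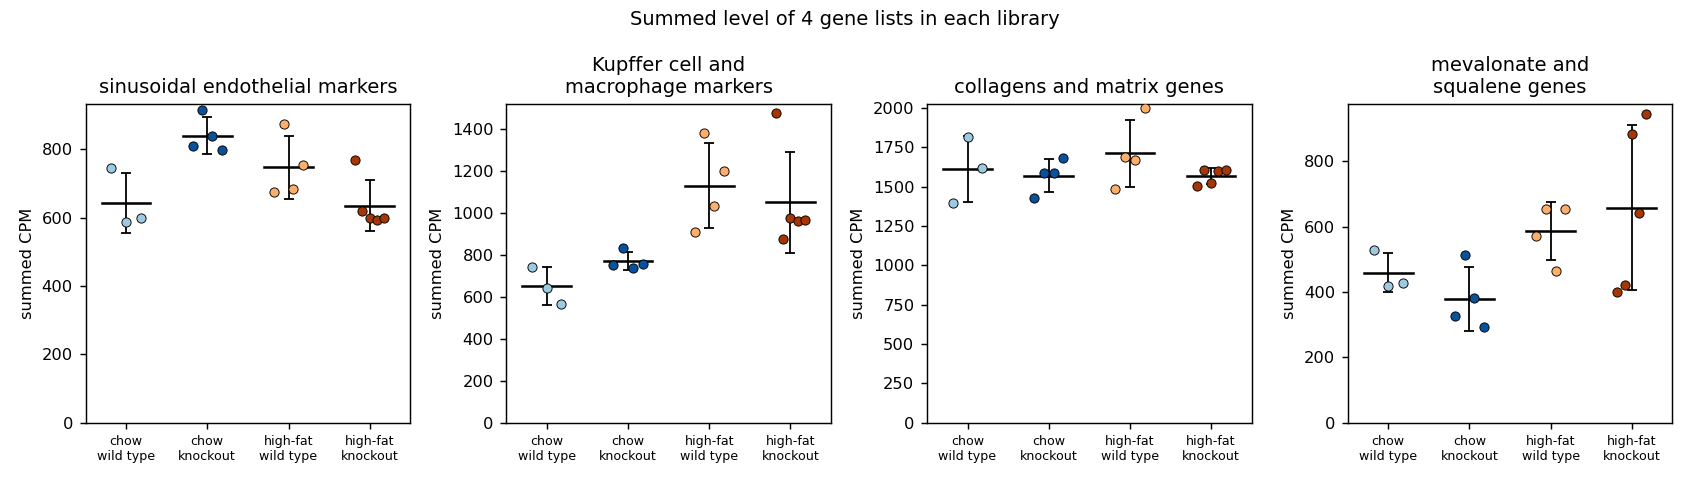
Summed CPM of 4 gene lists, with 1 point per library, the mean as a line and the SD as a bar. Endothelial sums in knockout lie at 797 to 916 CPM on chow, above the 587 to 745 CPM of wild type, and matrix sums overlap on both diets.

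Hepatocyte markers showed no shared direction. Of 22, 13 were above 0 and 9 below, with a median of 0.04, and 0 had an unadjusted p under 0.05. Of 5 ribosomal and 7S RNA genes, abundant RNAs whose share can vary with how a library was depleted, all 5 were below 0, with a median of -0.67. That median was -0.20 without chow wild type 3, -1.15 without HFD knockout 1 and -0.68 without both. It lay between -0.39 and -0.30 without HFD knockout 3 or 5 or HFD wild type 3, between -1.14 and -1.03 without HFD knockout 4, HFD wild type 4 or chow wild type 2, and was -1.41 in voom and -1.63 in voom with sample weights. These RNAs took 28113 to 166645 CPM in wild type and 137222 to 181586 CPM in knockout on chow, and 12209 to 106011 CPM and 6069 to 129891 CPM on HFD. They moved in the same direction as the endothelial and macrophage lists. With 1 of them, CT010467.1, left out of the fit, the endothelial median was -0.64 (30 of 30 below 0). The macrophage median was then -0.69 (19 of 22 below 0). Beyond that, the part of these RNAs in those results was not tested. Erythroid markers, from blood left in the tissue, had a median of -0.61 with 6 of 7 below 0. It was -1.07 without HFD knockout 4 and -0.33 without HFD wild type 2, and their part in the other results was not tested.

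Cholesterol synthesis genes lay on the other side. The mevalonate pathway turns acetyl-CoA into squalene, and SREBP2 is known to drive its genes together. All 11 mevalonate and squalene genes had a difference above 0, with a median of 0.70, against 50.7% of all genes above 0. Their median knockout effect was -0.46 on chow, where 0 of 11 were above 0, and 0.19 on HFD, where 11 of 11 were. Only Mvk and Lss had an unadjusted p under 0.05, against 2.75% of genes tested, and 0 passed the adjusted threshold. The median was 0.43 without HFD knockout 5, 1.07 without chow knockout 2 and 0.93 without HFD knockout 1 and chow wild type 3. The count of small p was 5 without HFD knockout 1, 4 without HFD knockout 2 and 4 without HFD knockout 1 and chow wild type 3.

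Mvk, mevalonate kinase (chr5:114444269-114460591), had 6.16, 7.16 and 7.16 CPM in wild type and 2.01, 2.78, 3.54 and 3.75 CPM in knockout on chow. On the high-fat diet it had 4.20, 5.05, 6.01 and 6.53 CPM in wild type and 3.67, 4.26, 6.20, 8.13 and 8.55 CPM in knockout. The chow groups did not overlap, while the HFD knockout libraries spanned the whole wild-type range. The difference was 1.36 ± 0.36, from -1.17 ± 0.28 on chow and 0.19 ± 0.23 on HFD (edgeR adjusted p = 0.57, DESeq2 adjusted p = 0.108).

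Mmab, an enzyme of cobalamin metabolism on the opposite strand (chr5:114431034-114444060), had 18.4, 19.6 and 24.2 CPM in wild type and 11.9, 14.3, 15.6 and 16.4 CPM in knockout on chow. On HFD it had 14.9, 15.8, 16.1 and 17.1 CPM in wild type and 14.7, 16.8, 16.9, 22.3 and 22.7 CPM in knockout. Its pattern resembled that of Mvk, with chow groups apart and HFD groups overlapping, and the difference was 0.74 ± 0.20 (edgeR adjusted p = 0.61).

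Mvk and Mmab start next to each other and are read in opposite directions. The stretch between them is shown because both genes were among the 15 smallest p-values with a positive difference. It lies at chr5:114444061-114444268, plus strand, RefSeq GRCm38.p6, 208 bases, and capitals mark CCAAT on either strand, the box bound by NF-Y, which is known to act with SREBP2.
Mmab to Mvk: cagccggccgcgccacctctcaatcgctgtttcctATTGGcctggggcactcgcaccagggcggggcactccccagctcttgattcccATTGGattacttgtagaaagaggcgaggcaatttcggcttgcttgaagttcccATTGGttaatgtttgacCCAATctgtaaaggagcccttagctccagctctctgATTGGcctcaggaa
The stretch holds CCAAT 5 times and the sterol element TCACNCCAC 0 times on either strand. Over windows of 300 bases, from 250 before to 50 after each start, CCAAT occurred in 37.4% of 32851 RefSeq promoters and TCACNCCAC in 1.2%. Among mevalonate and squalene genes 7 of 11 were matched, with 8 promoters, of which 6 held CCAAT and 1 held TCACNCCAC. For sterol ring genes the count of CCAAT was 9 of 11 promoters, and for hepatocyte markers 11 of 20. It was 5 of 17 for macrophage markers and 6 of 23 for endothelial markers. These are matches of letters in a fixed window.

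Lss, which closes the sterol ring, had 13.2, 14.0 and 15.1 CPM in wild type and 7.17, 7.93, 8.21 and 13 CPM in knockout on chow. High-fat libraries had 13, 15.3, 18.5 and 20.9 CPM in wild type and 13.9, 14.9, 17.4, 29.3 and 29.8 CPM in knockout. The chow groups were narrowly apart, and HFD knockout 3 and 5 were the high libraries for Lss, Mvk and Mmab alike. The difference was 0.95 ± 0.37 (edgeR adjusted p = 0.70). Summed over the 11 genes, these 2 libraries had 885 and 944 CPM, against 400 to 642 CPM in the other HFD knockouts, 466 to 655 CPM in HFD wild type, 293 to 514 CPM in chow knockout and 420 to 529 CPM in chow wild type. Of 10 genes of the later sterol ring steps 9 were above 0, with a median of 0.30, and 0 had an unadjusted p under 0.05.

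**Figure D4:**
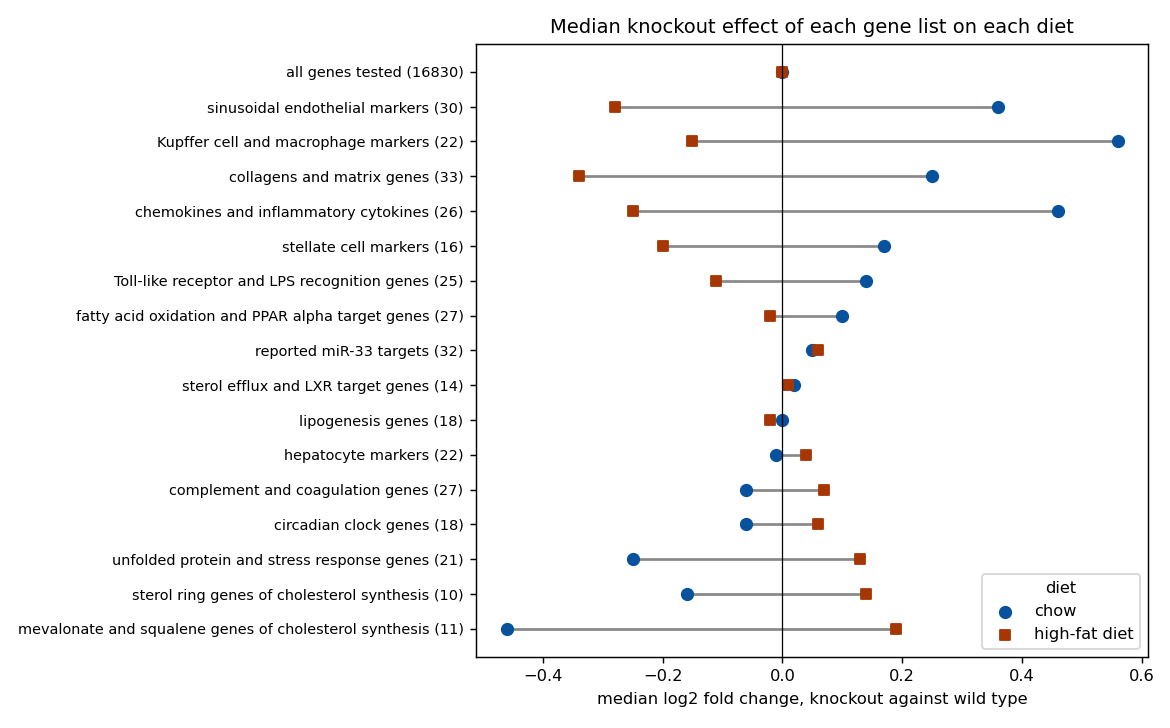
Median log2 fold change of knockout against wild type on chow (circles) and on high-fat diet (squares) for 16 gene lists and for all genes, with the number of genes tested in brackets. Endothelial, macrophage and matrix lists run from right of 0 on chow to left of 0 on high-fat diet, and the mevalonate list runs the other way, from -0.46 to 0.19.

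The host gene and targets of the microRNA showed little difference between diets. Abca1 (chr4:53030787-53159895) had 211, 227 and 255 CPM in wild type and 245, 271, 275 and 289 CPM in knockout on chow, and on HFD 257, 268, 272 and 278 CPM in wild type and 285, 321, 339, 353 and 376 CPM in knockout. Knockout libraries were higher without overlap on HFD and with overlap on chow. The knockout effects of 0.22 ± 0.09 and 0.32 ± 0.08 differed by 0.09 ± 0.12 (edgeR adjusted p = 0.94). Srebf2 had a difference of 0.14 ± 0.16 (edgeR adjusted p = 0.92). Of 32 reported miR-33 targets 14 were above 0, with a median of -0.02, and 0 had an unadjusted p under 0.05. Leaving out 1 library at a time gave target medians from -0.06 to 0.01, and library totals without TMM gave 0.04. Fatty acid oxidation and PPAR alpha targets had a median of -0.12, with 21 of 27 below 0 and 0 at an unadjusted p under 0.05. The median was -0.04 without chow wild type 3 or HFD knockout 1 and 0.01 without both. It was -0.07 without HFD wild type 3, -0.19 without chow wild type 2 and -0.05 with library totals without TMM.

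Across all genes with a 3' UTR of at least 20 bases, those with a match to miR-33-5p had differences close to the rest. A match here was the complement of bases 2 to 8, or of bases 2 to 7 followed by an A. The 2066 genes with at least 1 match had a median of -0.012 and 7.74% at an unadjusted p under 0.05, against 0.011 and 7.30% for 11051 genes without a match. Among 90 genes with 2 or more matches to bases 2 to 8 the median was -0.051 and the share 12.22%, or 11 genes. UTR length was not matched between these sets. Hist1h2br, a histone H2B gene with near-identical copies, had higher means in knockout on both diets, with log2 effects of 2.68 ± 0.37 and 3.18 ± 0.33, and these differed by 0.50 ± 0.51 (edgeR adjusted p = 0.90).

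DESeq2 also called negative differences in genes outside these lists. Iqgap1, a scaffold of the cell cortex, had -0.75 ± 0.17 (edgeR adjusted p = 0.42, DESeq2 adjusted p = 0.0487). Trim32, a ubiquitin ligase (chr4:65604986-65616238), had 5.97, 6.03 and 6.11 CPM in wild type and 7.44, 8.43, 8.99 and 11.1 CPM in knockout on chow. In the HFD groups it had 7.15, 8.50, 8.86 and 9.66 CPM in wild type and 6.13, 6.31, 6.74, 6.80 and 7.49 CPM in knockout. The chow groups were apart and the HFD groups overlapped by 1 library on each side. The difference was -0.93 ± 0.19 (edgeR adjusted p = 0.42, DESeq2 adjusted p = 0.0261).

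Cpt1b, the muscle form of the enzyme that brings fatty acids into mitochondria (chr15:89416405-89425863), had 2.54, 3.71 and 5.30 CPM in wild type and 6.75, 7.53, 8.04 and 9.27 CPM in knockout on chow. With high-fat feeding its levels were 3.48, 4.78, 5.39 and 5.66 CPM in wild type and 2.15, 3.03, 3.34, 4.22 and 4.88 CPM in knockout. Chow knockout libraries were higher than all 12 others, and the HFD groups overlapped. The difference was -1.48 ± 0.35, with a chow effect of 1.03 ± 0.26 (edgeR adjusted p = 0.42, DESeq2 adjusted p = 0.0461). Zfp189, a zinc finger gene, had 8.70 to 11.1 CPM in chow knockout and 4.71 to 6.09 CPM in chow wild type, with a difference of -1.16 ± 0.26 (edgeR adjusted p = 0.42, DESeq2 adjusted p = 0.0448).

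Positive differences included several genes with no list in common. Pja1, a ubiquitin ligase (chrX:99465734-99471273), had 40.3, 42.2 and 52.7 CPM in wild type and 27.4, 28.7, 32.3 and 33.5 CPM in knockout on chow. On the high-fat diet it had 24.4, 26.8, 28.9 and 29 CPM in wild type and 26.7, 28.6, 30.2, 32.9 and 37.6 CPM in knockout. Chow wild type stood above all 13 other libraries, and the difference was 0.76 ± 0.16 (edgeR adjusted p = 0.42, DESeq2 adjusted p = 0.0448). Cul7, a scaffold of ubiquitin ligases, had 10.5, 11 and 12.6 CPM in wild type and 4.62, 5.34, 6.11 and 7.22 CPM in knockout on chow. On HFD its ranges of 3.96 to 8.76 CPM in wild type and 6.19 to 9.18 CPM in knockout overlapped, and the difference was 1.25 ± 0.29 (edgeR adjusted p = 0.42, DESeq2 adjusted p = 0.0461).

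Tcaim, a mitochondrial protein (chr9:122805539-122836334), had 16.9, 17.4 and 20.9 CPM in wild type and 11, 12.4, 15.6 and 15.8 CPM in knockout on chow. On HFD it had 12.9, 13.4, 13.6 and 13.7 CPM in wild type and 14.5, 15.6, 16.9, 16.9 and 18.0 CPM in knockout. Its groups did not overlap on either diet, in opposite directions. The difference was 0.70 ± 0.17 (edgeR adjusted p = 0.42, DESeq2 adjusted p = 0.0484). Abhd18 had 0.98 ± 0.23 and Azin1, an activator of polyamine synthesis, 0.49 ± 0.12 (edgeR adjusted p = 0.42 for both, DESeq2 adjusted p = 0.0487 and 0.0664).

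**Figure D5:**
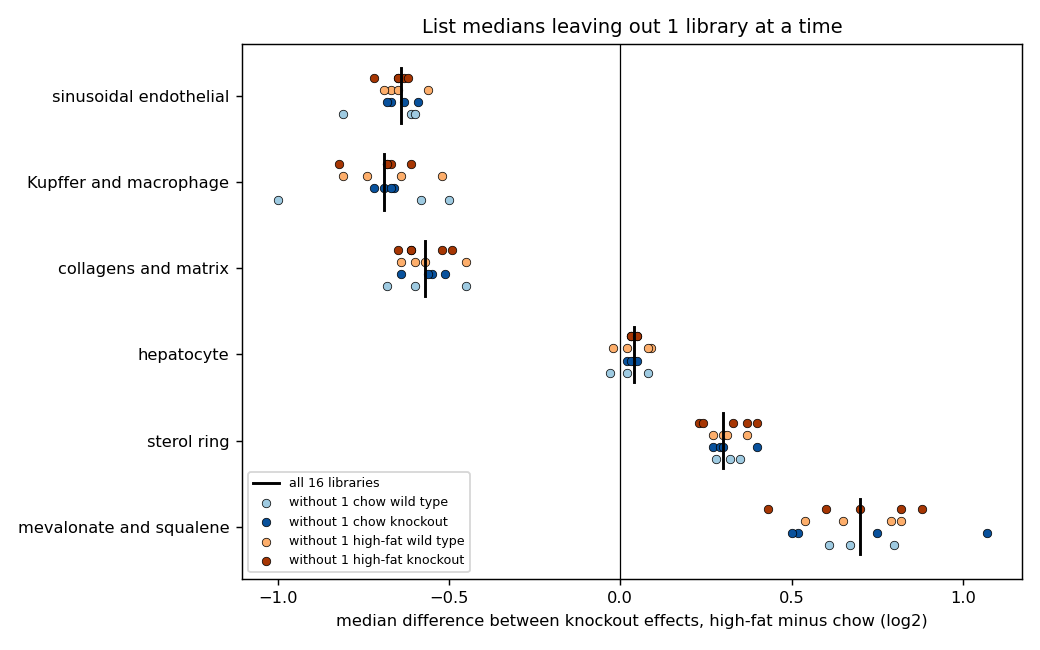
Median difference between the knockout effects (high-fat minus chow, log2) of 6 gene lists with all 16 libraries (black line) and without each library in turn (points, coloured by the group of the library left out). Endothelial medians stay between -0.81 and -0.56 and mevalonate medians between 0.43 and 1.07, while hepatocyte medians lie on both sides of 0, from -0.03 to 0.09.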

How the data were processed

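RNA of 16 liver libraries was compared in 4 groups. Per the labels' protocols the authors trimmed reads for quality, aligned them with TopHat2 and quantified them with Cuffdiff, and per the submitters' processing notes they used mm10. Neither tool versions nor the strand setting could be read from the labels, so overlapping and antisense genes are uncertain. The deposited table holds estimated counts per gene, with 32.8% to 37.9% of the values of a library exactly whole (tolerance 0). The step by which the authors arrived at them is not stated, and the deposited name speaks of FPKM. The smallest row total was 10. Spreadsheet software had turned 22 names into dates, and 19 were recovered by coordinates.

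Estimated counts were rounded and filtered with filterByExpr (16830 genes left). They were fitted in 1 quasi-likelihood model (edgeR 4.0.16, TMM, robust, 12 residual degrees of freedom) with a mean per group, two-sided, at a threshold of 0.05 after Benjamini-Hochberg adjustment across the genes tested. SE was taken as the size of the log2 fold change over the root of the F statistic. CPM, counts scaled to library size, use TMM-scaled totals. The fit was tested on simulated counts with known changes set in the HFD knockout group. At an adjusted p under 0.05 it recovered 22.4% of 67 genes changed 1.5-fold and 35.8% of 67 changed 2-fold. Of 66 genes changed 4-fold it recovered 80.3%, and it also called 6 unchanged genes. Smaller differences could thus be missed.

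The comparison and the 47 gene lists (787 of 821 names found) were chosen with earlier results of these data known. Named genes, with at least 1 CPM in the highest group and leaving out unnamed models, were the 15 smallest p each way, genes past the adjusted threshold in any tool, up to 4 members of each list, Srebf2 and Abca1. Alternatives were DESeq2 1.42.0, voom (limma 3.58.1, with and without sample weights), 3 other scalings, 2 other filters, no robust estimation, no CT010467.1 (a ribosomal RNA gene), each library left out, and HFD knockout 1 and chow wild type 3 left out together. Sequences were RefSeq's (GRCm38.p6), and UTRs were from GENCODE M21. 1 gene of the lists is not reported here.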

Additional observations from a re-analysis of the deposited data

Results flagged for a closer look

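In 12 of 159 groups tested over 53 named genes, 1 library stood far from the others of its group, where chance flags about 1 in 20. HFD knockout 1 had 74.0 CPM of Hsd3b5, a steroid enzyme of male mouse liver under growth hormone control, against 0.0349 to 0.516 CPM in the other HFD knockouts. It also had 217 CPM of Selenbp2, against 9.62 to 40.5 CPM. Their differences of 7.55 ± 3.12 and 3.59 ± 1.55 (edgeR adjusted p = 0.72 and 0.73) were as low as 1.75 and 1.71 when 1 library was left out, which was HFD knockout 1 for Hsd3b5 and chow wild type 2 for Selenbp2. In chow knockout, Eng was high in library 4 (28.9 CPM, others 21.7 to 22), Zfp189 in library 1 (11.1, others 8.70 to 8.91), Tlr4 in library 3 (2.76, others 2.11 to 2.16) and F8 in library 2 (24.3, others 14.9 to 15.6). There Hmox1 (12.5, others 17.2 to 17.8) and Scd2 (7.29, others 9.12 to 9.40) were low in library 3. Dbp was high in HFD wild type 1 (95.0 CPM, others 76.8 to 79.4), and Des in HFD wild type 4 (6.11 CPM, others 5.04 to 5.12). The unnamed model 5730405O15Rik was low in chow knockout 3 (0.212 CPM, others 0.517 to 0.574) and in HFD wild type 3 (0.421 CPM, others 0.521 to 0.535).

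In 11 genes every knockout library lay on opposite sides of wild type on the 2 diets. The log2 differences were -0.93 for Cd93, -0.67 for Eng, -1.36 for Myzap, -0.97 for Tcaf1, -0.23 for Vamp3, -2.93 for the small nucleolar RNA Rnu3b4 and -1.75 for 2310068J16Rik. They were 0.70 for Tcaim, 1.67 for Fbxo44, 0.60 for Pcnx4 and 1.61 for 5730405O15Rik. None passed the adjusted threshold in edgeR.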

How the results depend on the processing

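The count of genes past the adjusted threshold was 0 in edgeR, 13 with DESeq2, and 0 to 4 when 1 library was left out. The causes were not tested. The count at an unadjusted p under 0.05 stayed within 1.5 times of 1110 under each alternative. Genes with opposite, non-overlapping knockout effects numbered 7 negative and 4 positive. Without TMM the negative count was 3, and leaving out 1 library, which sets a weaker condition, gave 8 to 27 negative and 5 to 17 positive. Endothelial markers were below 0 in 29 or 30 of 30 and mevalonate genes above 0 in 11 of 11 under every alternative, scaling included. Among medians of lists 43 of 1242 values moved by more than the spread between libraries. Of named genes, 15 of 5292 values passed the adjusted threshold under an alternative. No paired analysis was possible because the labels give no replicate numbers. Chow wild type had 3 libraries, which limits the precision of each chow effect. Genes under 1 CPM on a diet, such as S100a8 on chow, rest on few counts there.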

Other observations

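The complement and coagulation, clock and stress response lists had medians of 0.14 to 0.30, and none of their genes passed the adjusted threshold in edgeR. Of 27 complement and coagulation genes 24 were above 0, with a median of 0.14, against 50.7% of all genes above 0. The median was 0.09 without chow wild type 3 and 0.06 without it and HFD knockout 1. The 2 that were negative at an unadjusted p under 0.05 were F8 (-0.72 ± 0.27) and Vwf (-0.74 ± 0.31), the coagulation factors known to be made by endothelial cells, against 3.84% of all genes. The 1 positive at that p was F11 (0.61 ± 0.21), a coagulation factor of hepatocytes, and the positive count was 3 without chow knockout 4 or chow wild type 1 and 2 without HFD knockout 4 or with library totals without TMM. The negative count was 1 in voom and without chow wild type 3, chow knockout 1 or 3, or HFD wild type 2 or 4. Of 18 circadian clock genes 12 were above 0, with a median of 0.17, and 4 had an unadjusted p under 0.05, namely Dbp (0.46 ± 0.16), Per2 (0.45 ± 0.18), Cry2 (0.29 ± 0.13) and Tef (0.25 ± 0.11). Over all genes 2.75% were positive at that p. The clock median was 0.06 without chow wild type 1, 0.08 without chow wild type 3, 0.09 without chow knockout 2, 0.30 without chow wild type 2, 0.11 without HFD wild type 1, 2 or 4, and 0.09 without chow wild type 3 and HFD knockout 1. The clock count was 1 to 5 over the alternatives. It was 1 without chow wild type 1 and 2 without any of chow wild type 3, chow knockout 2 or 4, HFD wild type 2, or HFD knockout 1 or 2. The labels give no time of day at which livers were taken. Of 21 unfolded protein and stress response genes 16 were above 0, with a median of 0.30 that was 0.49 without HFD knockout 1 and chow wild type 3. The count at an unadjusted p under 0.05 was 1, Pdia6 (0.70 ± 0.30), and it was 11 without chow knockout 4, 9 without HFD wild type 1, 5 without chow wild type 1 and 4 without HFD knockout 2. It was 0 without any of HFD knockout 3, HFD wild type 2 or 3, chow knockout 2 or 3, or chow wild type 2 or 3.

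Lipogenesis genes had no shared direction, while Lpl, from another list, had a negative difference. Of 18 lipogenesis genes 9 were above 0 and 9 below, and only Scd2 (-0.67 ± 0.22) had an unadjusted p under 0.05. The lipogenesis median was -0.00, from -0.19 to 0.11 with 1 library left out, and 0.18 without HFD knockout 1 and chow wild type 3. Summed over the list, HFD knockout 1 had 8905 CPM, against 19863 to 30754 CPM in the other HFD knockouts and 7168 to 14183 CPM in chow libraries. Lpl, which frees fatty acids from lipoproteins and was on the list of lipid-associated macrophage genes, had 6.46 to 10.2 CPM in wild type and 13.1 to 16.9 CPM in knockout on chow, without overlap. On HFD it had 38.9 to 84.2 CPM in wild type and 39.0 to 56.9 CPM in knockout, with overlap. Its difference was -1.15 ± 0.29 (edgeR adjusted p = 0.55, DESeq2 adjusted p = 0.0567).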
